A study of Homo sapiens with 4 samples.

Results

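Cells of the H1299 line that had been treated with 2 epigenetic inhibitors were ranked by how much of their RNA came from 10 genes of late G2 and mitosis, and the cells at the high and low ends of that ranking were compared. The score was the sum of the counts of TOP2A, MKI67, CDC20, CCNB2, AURKA, UBE2C, TPX2, CENPF, HMMR and NUSAP1, divided by all gene counts of the cell. The 3726 treated cells were split by this score into 4 sets, called low-score (931 cells), lower-middle (932), upper-middle (932) and high-score (931). The comparison of interest is high-score against low-score cells, 1862 of the 15289 cells in the series. The cells were chosen by the measured values of these 10 marker genes, which were left out of every gene comparison. All other genes were read in the same cells that were ranked, so the differences below describe the ranking and were given no test.

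H1299 is an established line from a human non-small cell lung cancer. HCT116, the other line of the series, came from a human colorectal cancer. The treated cells received 500 nM DAC (decitabine, an inhibitor of DNA methyltransferases) for 72 h and 500 nM SB939 (an inhibitor of histone deacetylases) for 18 h. Medium was renewed every 24 h and cells were used at passage 5 to 10. The untreated cells received the solvent DMSO. RNA was read in single cells from the 5′ end of polyadenylated transcripts with 10x Genomics chemistry. Each line and treatment was 1 library, so no difference between libraries has a replicate check, and cells of 1 library are not replicates. The 95% intervals below cover counting error only and not variation between cultures.

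As background, a dividing cell copies its DNA in S phase, prepares for division in G2 and separates its chromosomes in M phase. Genes of G2 and M are held off in resting and early G1 cells by the DREAM complex, which contacts them through a promoter element called CHR, and are switched on by MYBL2 and FOXM1 together with NF-Y, which binds CCAAT boxes. Genes of DNA replication are switched on earlier, by E2F factors. Decitabine is built into DNA during S phase, where it traps DNA methyltransferases, and treatment with such inhibitors is known to release transcription from long terminal repeats (LTR) of old retroviruses, LTR12C among them.

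The score was a gradient with no gap at either limit. Its median was 0.00580% of gene counts in low-score cells, 0.0451% and 0.141% in the 2 middle sets and 0.302% in high-score cells. The lowest high-score cell had 0.20297% (44 marker counts of 21678), and the cell just outside the set 0.20272% (23 of 11346). The highest low-score cell had 0.01586% (2 of 12612), and the cell just outside that set 0.01591% (2 of 12572). There were 233 cells within 10% of the upper limit and 105 within 10% of the lower one. No marker count at all was found in 372 cells, all of them low-score cells, which is 40.0% of that set. In untreated H1299, 63 of 3578 cells had none, and the limits of the treated library would place 1125 cells (31.4%) in the high range and 203 (5.67%) in the low range.

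The label of mitotic and non-mitotic cells was compared with genes the score did not use. High-score cells carried high levels of genes of mitotic entry, spindle and kinetochore, but replication genes were as high in them as in upper-middle cells, and the score does not tell late G2 from M phase. The sets are therefore named by score and not by phase. Among the markers themselves, which the ranking had to separate, UBE2C, a ubiquitin-conjugating enzyme of mitotic exit, stood at 2.93, 31.1, 153 and 497 CPM in the order from low to high score. CPM are counts per 1000000 gene and transposable element (TE) counts of a set. For TOP2A, a DNA topoisomerase, the values were 2.51, 27.6, 96.9 and 249.8 CPM. When the score was built from only 5 of the markers, the other 5 were still higher in the high-score cells of that score. The log2 ratios were 3.004 to 6.44 for one choice of 5 and 3.66 to 5.77 for the other. In the same order, these high-score sets shared 87.0% and 85.5% of their cells with the main set. The low-score sets shared 85.6% and 82.1%. All these genes come from the marker list itself, so the values show that the markers vary together. They do not test the label of the cells.

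Depth and RNA content moved with the score. The median count per cell was 14654, 14884.5, 16926.5 and 16979 from low to high score, and the median mitochondrial share was 10.3%, 9.78%, 8.21% and 8.18%. The libraries had 62428673 counts in treated and 64524196 in untreated H1299. Pairs of libraries shared 18 to 30 cell barcodes. The summed level of 16 markers of the HCT116 line was 10.5 CPM in low-score and 13.6 CPM in high-score treated cells, with 3 of them at 0, and 0.416 and 0.354 CPM in untreated H1299, with 11 at 0 in both of these sets. The part of depth, mitochondrial content and stray RNA in the differences below was not tested beyond the values given. In cells of middle depth, between the 25th and 75th percentile of counts, the median log2 ratios were 5.10 for mitotic kinases, 3.78 for kinetochore, 4.19 for spindle and 2.13 for replication genes, beside 5.13, 3.60, 4.21 and 2.21 in all cells.

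Genes were compared where the high-score or the low-score set held 200 counts or more, which left 7820. A gene with fewer than 200 counts in 1 of these sets was compared only through the other, so the direction of its ratio is largely set by this rule. NEK2, with 1282 counts in high-score and 7 in low-score cells, is an example. This bears on the counts of list members below, and on the share of all genes beside them. Of these, 1795 (23%) had at least 1.5 times the level in high-score cells, and 322 (4.12%) were lower there by the same limit. At a limit of 2-fold the counts were 709 (9.07%) and 67 (0.857%). The median log2 ratio of all 7820 genes was 0.24, so values near it do not set a gene apart. Higher genes made up 84.8% of those past the limit. When ratios were instead scaled by the median ratio of genes with at least 1000 counts in both sets, the median of all genes was 0.10, the counts were 1237 and 541, and the share of higher genes was 69.6%. With no lower limit on counts, 5206 of 31639 genes were higher and 5493 lower, so that share was 48.7%. In cells of middle depth, where 4723 genes could be compared, 1213 (25.7%) were higher and 131 (2.77%) lower. Among genes with at least 1000 counts, the 15 with the highest ratio are all known as genes of cell division, led by NEK2, CENPA, KIF20A and CDCA8.

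Cyclins, kinases and phosphatases of mitotic entry had the highest median ratio among the lists. Of 20 such genes compared, all 20 were at least 1.5-fold higher, beside 23% of all genes, and their median log2 ratio was 5.13 beside 0.24 for all genes. NEK2, a kinase that separates centrosomes (chr1:211658657-211675630, minus strand), stood at 0.489, 9.09, 28.3 and 76.2 CPM from low to high score, a log2 ratio of 7.28 (6.24 to 8.60). It was present at low levels in lower-middle cells and more than doubled again between the upper-middle and high-score sets. CDK1, the kinase that drives entry into mitosis, stood at 1.19, 9.30, 38.6 and 103 CPM, and its partner cyclin B1 (CCNB1) at 9.003, 41.0, 101 and 271 CPM, log2 ratios of 6.45 and 4.91. PLK1, a kinase of spindle assembly and mitotic entry, stood at 2.58, 15.4, 45.6 and 142 CPM (5.78). All 4 of these genes increased from each set to the next. AURKB and CDCA8 belong to the chromosomal passenger complex, which corrects chromosome attachment. AURKB stood at 3.98, 18.3, 60.6 and 131 CPM (5.04) and CDCA8 (chr1:37692418-37709719, plus strand) at 1.19, 14.4, 55.5 and 123 CPM (6.69). The lowest ratio of the list was that of CDC25B, a phosphatase that activates CDK1 from G2 on, at 2.11. It was also detectable in low-score cells, with 21.7, 36.8, 46.0 and 93.4 CPM across the sets.

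**Figure D1:**
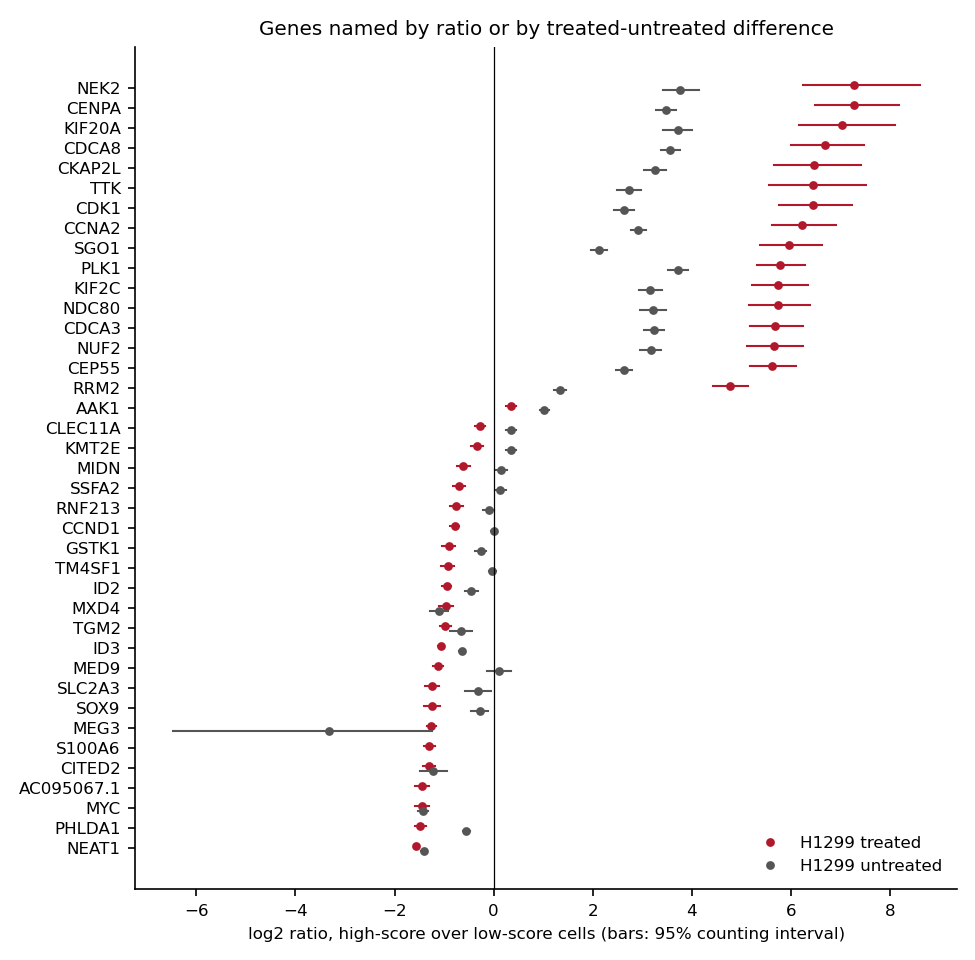
Log2 ratio of high-score over low-score cells (x axis) for the genes named by their ratio or by their difference between treatments (y axis), in treated (red) and untreated (grey) H1299, with bars for the 95% counting interval. The 15 mitotic genes and RRM2 lie further right in treated cells, with NEK2 at 7.28 against 3.77, and NEAT1 and MYC lie at nearly the same place in both.

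Promoters of some genes that led the ranking are shown, and all of them but NEK2 were picked for a CHR match. Others near the top, such as KIF20A, had no CHR match in their promoter, and shares over the lists are given below. Each run below is the 100 bases before the annotated start site, read 5′ to 3′ on the gene's strand, from RefSeq on GRCh38.p14. Capitals mark matches, on either strand, to CHR, in the form TTTGAA and the form TTCGAA, to the CCAAT box, or to E2F. For E2F the form TTGGCGC, the form TTCCCGC, the form TTGCCGC and the form TTCGCGC were searched. NEK2 (chr1:211675622-211675721, minus strand) had the highest ratio. CENPA (chr2:26785956-26786055, plus strand, a start inside the longer GENCODE gene), CDCA8 (chr1:37692416-37692515, plus strand) and CKAP2L (chr2:112764610-112764709, minus strand) had the highest ratios among mitotic genes with 1 listed start and a CHR match in these bases.
NEK2: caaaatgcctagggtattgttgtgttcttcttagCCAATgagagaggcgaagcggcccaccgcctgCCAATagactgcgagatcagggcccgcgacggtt
CENPA: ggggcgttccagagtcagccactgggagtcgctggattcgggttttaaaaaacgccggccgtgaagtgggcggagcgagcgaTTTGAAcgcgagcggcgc
CDCA8: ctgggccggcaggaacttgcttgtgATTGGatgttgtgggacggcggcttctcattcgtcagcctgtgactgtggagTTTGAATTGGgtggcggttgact
CKAP2L: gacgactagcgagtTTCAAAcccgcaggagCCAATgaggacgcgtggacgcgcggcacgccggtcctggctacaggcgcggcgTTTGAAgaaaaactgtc
In NEK2 the capitals are a pair of CCAAT boxes, at -66 and -34 from the start, and no CHR match was found. In CENPA they are a CHR match at -18, in CKAP2L CHR matches at -86 and -17 with a CCAAT box at -70 between them. In CDCA8 a CHR match at -23 overlaps a reversed CCAAT box at -18, and another reversed box lies at -75.

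These matches were counted over promoters of 300 bases, 250 before and 50 after each start. CHR was found in 66.7%, CCAAT in 70.0% and both in 53.3% of 90 promoters of the mitotic kinase, kinetochore and spindle lists (73 of 86 genes matched). Over all 35116 promoters in the table the shares were 16.4%, 34.6% and 6.38%, and over those of all genes compared (80.4% of genes matched) 11.67%, 36.3% and 5.01%. Among genes at least 1.5-fold higher in high-score cells, CHR was in 18.8% and CCAAT in 45.4% of promoters. Genes past neither 1.5-fold limit had CHR in 9.62% and CCAAT in 33.6%. In the smaller group at least 8-fold higher, the shares were 52.98% and 66.9%. A match describes letters in a window and not a bound site. The same count for the genes that were lower is void, because promoters were matched for only 62.1% of them.

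At the centromere and kinetochore, the site where chromosomes attach to the spindle, 28 of 29 genes were at least 1.5-fold higher in high-score cells, beside 23% of all genes, with a median of 3.60. CENPA, the histone variant that marks centromeres (chr2:26764289-26801067, plus strand), stood at 0.907, 11.98, 48.6 and 140.4 CPM, a log2 ratio of 7.27 (6.497 to 8.18). HJURP, the chaperone that loads CENPA, stood at 11.6, 26.0, 57.4 and 199.6 CPM (4.11). Both were highest in high-score cells, and HJURP was already detectable in low-score cells. SPC25, a subunit of the NDC80 complex that holds microtubules, stood at 0.489, 13.6, 40.8 and 55.4 CPM (6.82) and its partner NDC80 at 1.67, 17.0, 50.3 and 89.3 CPM (5.74). Most of the increase in SPC25 lay below the upper-middle set, and NDC80 gained more in high-score cells. SGO1, which protects cohesion at centromeres, had a log2 ratio of 5.96, and MAD2L1, a spindle checkpoint protein, 4.82. KNTC1, a checkpoint protein that brings dynein to kinetochores, was the 1 gene that passed neither limit, at 49.97, 63.4, 51.3 and 51.5 CPM (0.04).

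All 37 genes of kinesins, spindle and cytokinesis were at least 1.5-fold higher, beside 23% of all genes, with a median of 4.21. KIF20A, a kinesin of the midzone and cytokinesis (chr5:138178719-138187715, plus strand), stood at 0.698, 9.23, 29.05 and 92.1 CPM, a log2 ratio of 7.04 (6.16 to 8.11). KIF18B, a kinesin of astral microtubules, had 6.92, and CEP55, which recruits the abscission machinery, 5.62. ASPM, a protein of spindle poles, stood at 2.93, 14.7, 42.3 and 134 CPM (5.52). TUBB4B, a beta tubulin, was abundant in every set, at 117, 214, 439 and 944 CPM (3.01). STMN1, which destabilises microtubules, had the lowest ratio of the list at 1.602.

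Genes of mitotic exit and of chromosome packing were higher by smaller ratios. Of 16 genes of the anaphase promoting complex, securin and cyclin-dependent kinase subunits, 13 were at least 1.5-fold higher (median 1.21), beside 23% of all genes. The median was 1.82 in cells of middle depth, 2.49 without numbered features and 0.50 against upper-middle cells. FBXO5, an inhibitor of that complex, had 4.68, CKS2 3.80 and PTTG1, the securin that holds separase, 2.02, whereas the core subunits ANAPC1 and ANAPC5 had 0.54 and 0.29 and passed no limit. Of 22 genes of condensin, cohesin and chromatin packing, 20 were higher (median 1.97), beside the same share. SMC4, a condensin subunit, stood at 19.3, 83.9, 172 and 303 CPM (3.98), and HMGB2, a DNA-bending protein, at 11.8, 49.3, 144 and 304 CPM (4.69). Cohesin subunits had smaller ratios, with 1.23 for SMC3 and 0.35 for STAG2, the latter past no limit. Among 13 transcription factors of the G2/M programme and the DREAM complex, 8 were higher (median 0.76), again beside 23%. That median was 0.10 against upper-middle cells. It was 2.81 among members with at least 1000 counts in the set where they were higher. That limit keeps members partly because they were high, so 2.81 does not describe the whole list. FOXM1 had 3.33 and MYBL2 2.81, while E2F4, the E2F factor of DREAM, had 0.28.

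**Figure D2:**
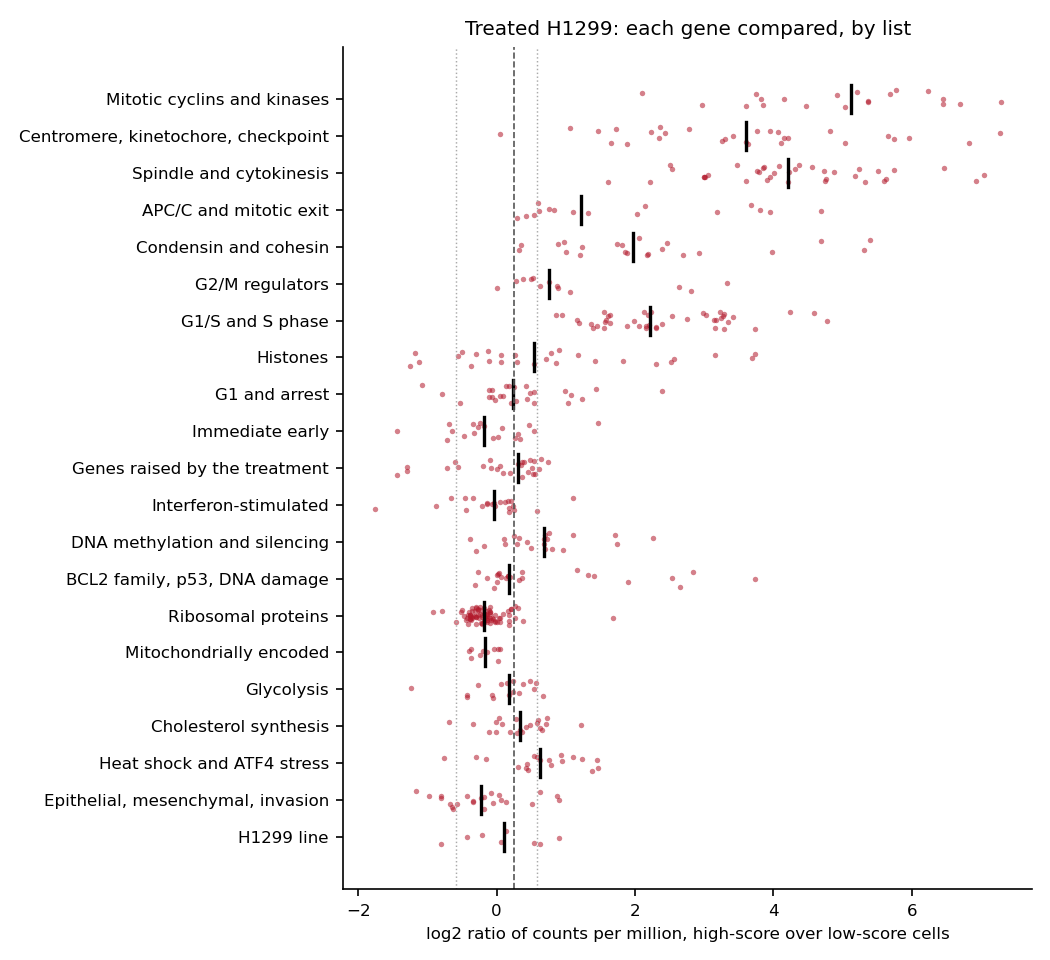
Log2 ratio of high-score over low-score cells in treated H1299 (x axis) for each gene compared, by gene list (y axis). Points are genes, black bars list medians, the dashed line the median of all genes (0.24) and dotted lines the 1.5-fold limits. The mitotic kinase, spindle and kinetochore lists have medians of 5.13, 4.21 and 3.60, and ribosomal protein genes cluster around -0.19.

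Replication genes were lowest in low-score cells. All 44 genes of origin licensing, DNA synthesis and nucleotide supply that could be compared were at least 1.5-fold higher in high-score cells, beside 23% of all genes, with a median log2 ratio of 2.21. The rest of the 53 listed fell under the count limit. Some of the 44 passed it only through the high-score set, such as RRM2 with 2224 counts there and 69 in low-score cells. The summed level of all 53 was 629.6, 1638, 2768 and 2781 CPM from low to high score. It was level between the upper-middle and high-score sets, unlike that of the mitotic kinases, which was 84.0, 331, 884 and 1886 CPM. RRM2, the small subunit of ribonucleotide reductase, stood at 4.82, 44.5, 112 and 132 CPM (4.78) and had the highest ratio of the list. CDC6, which loads the replicative helicase in G1, stood at 1.19, 11.8, 23.7 and 12.004 CPM (3.34) and was highest in upper-middle cells. MCM4, a subunit of that helicase, stood at 17.7, 54.7, 85.8 and 80.2 CPM (2.18). PCNA, the sliding clamp of DNA polymerases, stood at 14.9, 32.02, 50.7 and 58.8 CPM (1.98), and the lowest ratio of the list was that of RPA2, a single-strand binding protein, at 0.86. After each cell was thinned to 3700 counts, the median cell had 2, 5, 9 and 10 counts of S-phase genes and 3, 7, 17 and 33 counts of the mitotic lists from low to high score. Of low-score cells, 52 (5.59%) had no count of the mitotic lists at that depth.

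Promoters of 2 replication genes with an E2F match, from among those with the highest ratios, are shown for the contrast with those above. They are RFC3 (chr13:33818049-33818148), which encodes a subunit of the clamp loader, and DTL (chr1:212035648-212035747), the receptor of a ubiquitin ligase that destroys CDT1, both on the plus strand.
RFC3: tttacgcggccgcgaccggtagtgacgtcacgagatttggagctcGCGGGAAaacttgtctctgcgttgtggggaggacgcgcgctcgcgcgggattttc
DTL: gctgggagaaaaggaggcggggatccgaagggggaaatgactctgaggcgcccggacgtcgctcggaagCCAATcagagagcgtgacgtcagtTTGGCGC
The capitals are E2F matches at -55 in RFC3 and -7 in DTL, with a CCAAT box at -31 in DTL. No CHR match lay in these bases. Over 55 promoters of the replication list (38 of 44 genes matched), E2F was in 61.8% and CHR in 7.27%, beside 20.6% and 11.67% over promoters of all genes compared. For the mitotic lists the E2F share was 31.1%.

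Histone genes summed to 2816, 4547, 6808 and 5759.7 CPM from low to high score and so were highest in upper-middle cells. Replication-dependent histone genes are transcribed mostly in S phase, and their messages usually lack a poly(A) tail, so a polyadenylated library holds only part of them. Of 27 histone genes, 13 were at least 1.5-fold higher and 3 lower in high-score cells (median 0.55), beside 23% and 4.12% of all genes. HIST1H4C stood at 94.9, 557, 1357 and 545 CPM (2.52) and HIST1H1B at 1.81, 34.5, 95.4 and 23.4 CPM (3.69). Both were higher in upper-middle than in high-score cells. The variants H2AFX and H2AFZ were highest in high-score cells instead, with 26.0, 96.6, 256 and 346 CPM (3.73) and 376, 898, 1231 and 1339 CPM (1.83). Lower in high-score cells were HIST1H2BD (-1.26), HIST3H2A (-1.18) and HIST2H2BE (-1.12). Histone genes resemble each other closely, and no source used here says how reads shared among them were counted.

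Setting high-score cells against the adjoining upper-middle set, a comparison added after seeing the data, left a narrower difference. Of 7844 genes, 198 (2.52%) were at least 1.5-fold higher and 65 (0.829%) lower, and the median over all genes was 0.06. The mitotic kinase list had 17 of 20 genes higher (median 1.12) and the spindle list 35 of 37 (median 1.09), but the kinetochore list only 13 of 29 (0.44). Replication genes had a median of -0.04, with 0 of 46 higher and 3 lower, and histone genes -0.34, with 0 of 28 higher and 9 lower. Among genes with at least 1000 counts, FAM83D, a spindle protein, had the highest log2 ratio at 2.29, from 26.7 to 131 CPM, followed by CDCA2 at 1.84, a phosphatase subunit of mitotic exit. The lowest were HIST1H1B at -2.03 and HIST1H1E at -1.82.

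**Figure D3:**
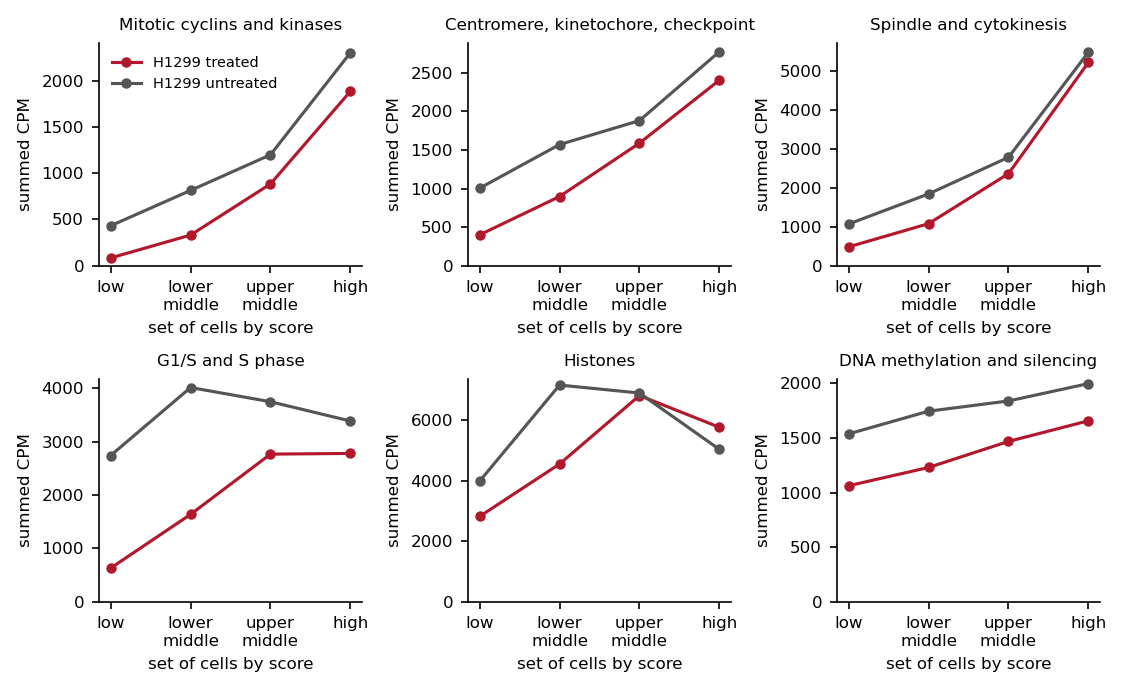
Summed CPM (y axes, from 0) of 6 gene lists in the 4 sets of cells ordered by score (x axes), in treated (red) and untreated (grey) H1299, 1 library each, so there are no error bars. Mitotic lists climb to the high-score set in both libraries, while S-phase genes climb from 629.6 to 2781 CPM in treated cells and start at 2741 CPM in untreated cells.

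Genes of G1 had a median log2 ratio of 0.23, beside 0.24 for all genes. Of 26 G1 cyclins, retinoblastoma family members and cell cycle inhibitors, 2 were at least 1.5-fold lower in high-score cells and 6 higher, beside 4.12% and 23% of all genes. CDKN2B, an inhibitor of CDK4 and CDK6, stood at 39.5, 23.8, 17.7 and 18.7 CPM (-1.08), and CCND1, their partner cyclin D1, at 166, 108, 81.9 and 96.5 CPM (-0.78). Cyclin D1 was highest in low-score cells and lowest in upper-middle cells. CDKN1A, the inhibitor p21, stood at 93.2, 107, 141 and 130.1 CPM (0.48) and did not pass a limit. CDKN2D, another inhibitor of CDK4 and CDK6, went the other way, at 23.4, 41.4, 80.5 and 123 CPM (2.40).

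Among genes with at least 1000 counts, NEAT1 had the lowest ratio. NEAT1, a nuclear long noncoding RNA that builds paraspeckles (chr11:65422774-65445540, plus strand), stood at 776, 660.2, 429.7 and 263 CPM, a log2 ratio of -1.56 (-1.61 to -1.51). PHLDA1 (chr12:76025447-76033932, minus strand) stood at 149.8, 107, 81.0 and 53.6 CPM (-1.48) and the transcription factor gene MYC at 85.6, 75.6, 57.6 and 31.4 CPM (-1.45). All 3 decreased from each set to the next. ID3 and ID2, inhibitors of helix-loop-helix transcription factors, had -1.05 and -0.95, SOX9, a developmental transcription factor, -1.25, and SLC2A3, a glucose transporter, -1.24. CITED2, a cofactor of the coactivators CBP and p300, had -1.30, and MEG3, an imprinted long noncoding RNA, -1.26. The other genes of the lowest 15 were AC095067.1 (-1.44), S100A6 (-1.30), MED9 (-1.12), TGM2 (-0.97), MXD4 (-0.96) and TM4SF1 (-0.93).

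Immediate early genes and genes of epithelial and mesenchymal state and invasion had medians below 0. Of 19 immediate early and AP-1 genes, 4 were at least 1.5-fold lower and 1 higher (median -0.19), beside 4.12% and 23% of all genes. Besides MYC the lower ones were JUNB (-0.72), the AP-1 subunit, CTGF (-0.68), a matricellular growth factor, and KLF6 (-0.65). Of 23 epithelial, mesenchymal and invasion genes, 7 were lower and 3 higher, beside the same shares (median -0.23, but 0.02 against upper-middle cells). VIM, the intermediate filament vimentin and a marker of this line, stood at 1568, 1298, 929.8 and 896 CPM (-0.81), and KRT19, a keratin, had -1.17. ZEB1, a transcription factor of the mesenchymal state, had 0.89 and ACTB 0.52, so the list did not move as one. The 8 markers of the H1299 line that could be compared had a median of 0.10, which was negative in 7 alternatives, down to -0.31 with at least 1000 counts. The summed level of all 10 markers was 4154, 3619.7, 2844 and 2924 CPM from low to high score.

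Of 22 genes of DNA methylation and retroelement silencing, 12 were at least 1.5-fold higher in high-score cells and 0 lower (median 0.69), beside 23% and 4.12% of all genes. DNMT1, the maintenance methyltransferase that decitabine traps and a member of the replication list, stood at 47.3, 86.5, 139.7 and 147 CPM (1.64). Its partner UHRF1, which is not among these 22 genes, stood at 9.35, 23.5, 45.1 and 43.8 CPM (2.23). HELLS, a chromatin remodeller needed for DNA methylation, stood at 17.4, 48.7, 84.9 and 83.4 CPM (2.26). EZH2, the methyltransferase of Polycomb complex PRC2, had 1.72 and TRIM28, the corepressor of KRAB zinc finger proteins, 0.69. SETDB1, the histone methyltransferase that TRIM28 recruits, had -0.38 and passed no limit. HDAC1 and HDAC2, targets of SB939, had 0.49 and 0.44 and passed no limit.

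Genes raised by the treatment had a median log2 ratio of 0.31, beside 0.24 for all genes. They were listed from earlier results on these samples, so the list is not independent evidence. Of 27 compared, 3 were at least 1.5-fold higher and 5 lower in high-score cells, beside 23% and 4.12% of all genes. The germline genes MAGEA3, MAGEA4 and DAZL had 0.56, 0.05 and 0.54 and passed no limit. SYCP3, a protein of meiotic chromosomes, had 0.61 and was past it. The metallothioneins differed among themselves, with 0.31 for MT2A and -1.29 for MT1G. S100A6, a calcium-binding protein, stood at 144, 102, 61.8 and 58.7 CPM (-1.30). Of 22 interferon-stimulated and RNA sensing genes, 2 were higher and 3 lower, beside the same shares of all genes (median -0.03, which turned positive in 6 of the alternatives). HERC5, a ligase for ISG15, had 1.097, while IFI27 stood at 17.9, 8.74, 4.56 and 5.29 CPM (-1.76).

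Stress genes had a median log2 ratio above that of all genes. Of 19 heat shock and ATF4 stress genes, 11 were at least 1.5-fold higher and 1 lower (median 0.62), beside 23% and 4.12% of all genes. Ratios over the list ran from -0.75 to 1.47, and the genes named next are from its heat shock part only. HSP90AA1, a cytosolic chaperone, stood at 2148, 2886, 3453 and 4132 CPM (0.94), DNAJB1 at 113, 126, 173 and 266 CPM (1.24) and HSPA8 at 476, 458, 512 and 906 CPM (0.93). HSPA8 was level over the first 3 sets and higher in high-score cells, whereas HSP90AA1 increased at each step. Of 24 genes of DNA damage and cell death, 8 were higher, beside 23% of all genes, and the median was 0.18. Among the 8 were FANCI (2.84) and FANCD2 (2.53) of the Fanconi pathway and the checkpoint kinases CHEK2 (1.90) and CHEK1 (1.41). The p53 target MDM2 had 0.37 and BAX 0.37. H1299 is known to lack p53. Of 21 cholesterol synthesis genes, 7 were higher and 1 lower, beside the same 23% and 4.12% (median 0.34), with EBP at 1.21 and SQLE at 0.71.

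The ribosomal, mitochondrial and glycolysis lists had medians below that of all genes. Of 83 ribosomal protein genes, 1 was higher (RPL39L, 1.68) and 3 lower (RPL3L, -0.92, RPL3, -0.78, and RPL10A, -0.59), with a median of -0.19, beside 23% higher and 4.12% lower of all genes. That median was 0.16 when numbered features, which the deposited table lists apart within a gene, were left out. None of 10 mitochondrially encoded genes passed a limit (median -0.16). Of 17 glycolysis genes, 1 was higher and 1 lower (median 0.18), and GAPDH stood at 9819, 8879.8, 7825 and 7311 CPM (-0.43).

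Transposable elements took a smaller share of RNA in high-score cells. TE counts were 3.63%, 3.65%, 2.98% and 2.29% of all counts without the markers, from low to high score, a log2 ratio of -0.66 (-0.67 to -0.66). Low-score and lower-middle cells had nearly the same share, and it was lower in upper-middle and lowest in high-score cells. In counts per cell the means were 559, 568, 533 and 414, so TE counts per cell were fewer in high-score cells although their total counts were higher. At 3700 counts per cell the median share was 3.03%, 3.03%, 2.43% and 1.92%. Of the 372 cells with the highest TE share, 34.1% were low-score, 37.9% lower-middle, 21.0% upper-middle and 6.99% high-score cells. Of the 372 with the lowest share, 16.7%, 12.6%, 29.3% and 41.4% fell in the same sets. Cells of middle depth gave a log2 ratio of -0.72, and high-score against upper-middle cells -0.38.

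**Figure D4:**
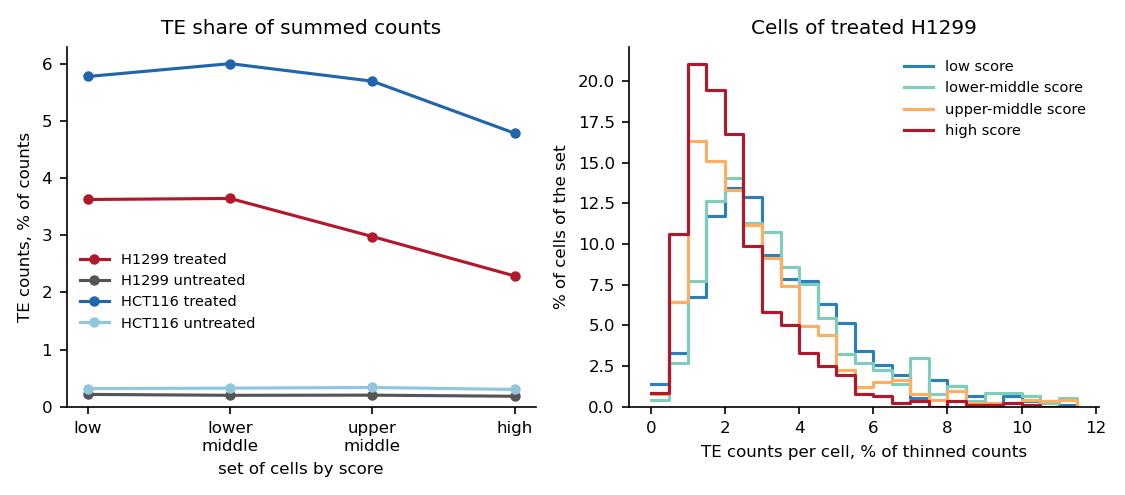
Left, TE counts as a percentage of all counts without the markers (y axis, from 0) in the 4 sets of cells by score (x axis) in the 4 libraries, each ranked by its own scores, 1 library each. Right, the distribution of the TE share per cell (x axis, percent of 3700 thinned counts, up to 12%) in each set of treated H1299, as a percentage of the set's cells (y axis). In treated H1299 the share goes from 3.63% to 2.29%, and high-score cells lie towards low TE shares.

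The difference was unequal between TE groups. Of 95 families compared by the same rule, 0 (0%) were higher past the 1.5-fold limit and 34 (35.8%) lower. More were lower when ratios were scaled by the median ratio or under another denominator, with values given at the end. In all, 83 were below 0, and the median was -0.49. LTR12, the LTR of the HERV9 retrovirus, held 66.5% of TE counts in low-score and 65.4% in high-score cells and stood at 24123, 24552, 19519.7 and 14980.5 CPM (-0.69). THE1, LTRs of the MaLR class, stood at 3059, 2272, 1581 and 1460.0 CPM and had the lowest ratio of the groups compared (-1.07, -1.09 to -1.04). The related MST and MLT groups had -0.85 and -0.75. Alu elements, short elements copied by the machinery of L1, were highest in the middle sets, at 5124, 5959, 5673 and 3621 CPM (-0.50). L1 elements had -0.38, and LTR7 with HERVH -0.04 (-0.13 to 0.05), a difference within counting error.

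Members of the LTR12 group did not share 1 ratio. LTR12C, the most abundant, stood at 22135, 22355, 17214 and 13497 CPM (-0.71). LTR12E and LTR12F had -1.43 and -1.26, LTR12B -0.75 and the family listed as LTR12_ -0.49. LTR12D and LTR12 were highest in upper-middle cells, at 590.5, 722, 796 and 531 and 519, 619, 766 and 468 CPM, and had -0.15 and -0.15. Among families with at least 1000 counts in the high-score and low-score sets together, those of the lowest ratio were, with LTR12E, MER52C (-1.33), LTR9 (-1.29), THE1A (-1.28), LTR12F and THE1C (-1.14). By the same limit those of the highest ratio were LTR79 (0.49), MER66B (0.35) and LTR10F (0.21), and none of these passed the limit. In LTR79, 80.1% of counts came from 1 locus, in LTR9 79.0%, in LTR50 93.1% and in MSTB 96.0%, so these families are close to single elements. The MSTB locus held 3760 of the 10921 counts of the MST group in low-score cells.

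Single loci spread further than families. Of 444 loci with at least 200 counts in the high-score or the low-score set, 33 (7.43%) were at least 1.5-fold higher and 267 (60.1%) lower in high-score cells, with a median of -0.85. A locus with fewer counts in 1 of these sets was compared only through the other. Examples are LTR12C loci with 202 and 18, or 48 and 257, counts in low-score and high-score cells. Part of the spread and of these shares follows from that rule. Of 340 LTR12C loci, 19 were higher and 209 lower. The 6 loci with the most counts all belonged to LTR12C, and their log2 ratios were -0.55, 0.30, -0.47, -1.12, -0.63 and -0.39 in order of abundance. The second of these had 5558 counts in low-score and 8062 in high-score cells, so a locus of the same family went against the others. Loci carry no coordinates in the deposited table and were not placed in the genome.

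**Figure D5:**
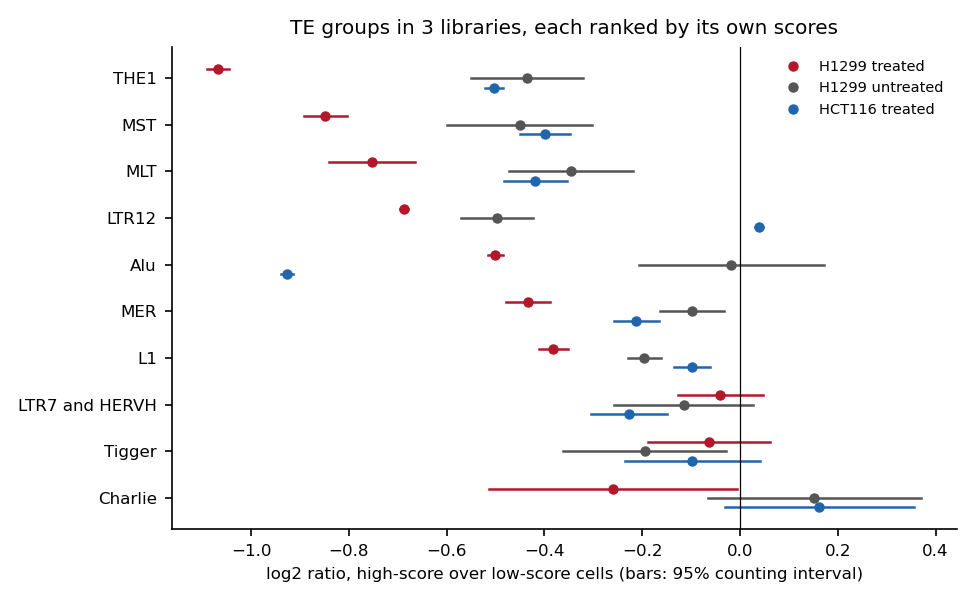
Log2 ratio of high-score over low-score cells (x axis) for 10 TE groups (y axis) in treated H1299 (red), untreated H1299 (grey) and treated HCT116 (blue), with bars for the 95% counting interval. In treated H1299 THE1 lies lowest at -1.07, and LTR12 is at -0.69 there and at 0.04 in treated HCT116.

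The same ranking was made in untreated H1299, where high-score and low-score cells were taken from that library's own scores. Past the 1.5-fold limit lay 861 (10.9%) higher and 244 (3.08%) lower genes of 7924, with a median of 0.14. Mitotic genes separated there too, by smaller ratios. The median log2 ratio was 2.76 for mitotic kinases (19 of 21 higher), 1.42 for kinetochore genes (25 of 29) and 2.61 for spindle genes (37 of 37). Among genes compared in both libraries, the ratio was larger in treated cells for 20 of 20 mitotic kinase genes, 28 of 29 kinetochore genes and 35 of 37 spindle genes, and for 4678 of all 7084 genes. The summed level of the 10 markers themselves had a log2 ratio of 5.84 in treated and 3.37 in untreated cells. The median score was 0.0389% and 0.344% in untreated low-score and high-score cells, beside 0.00580% and 0.302% in treated ones. The ratio of high to low score was thus larger in treated cells, though the range in percent of gene counts was not wider. The part of this in the larger gene ratios was not tested. Mitotic kinases summed to 84.0 CPM in treated and 432 CPM in untreated low-score cells, and to 1886 and 2304 CPM in high-score cells. CENPA had 15.8 and 176 CPM in untreated low-score and high-score cells, beside 0.907 and 140.4 CPM in treated ones, a difference of log2 ratios of 3.80 (2.99 to 4.61). CDK1 had 16.4 and 101 CPM untreated, a difference of 3.82 (3.10 to 4.53), and SGO1 24.7 and 108 CPM, a difference of 3.83. These intervals come from counting error in 1 library per treatment, so the difference has no replicate check.

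In untreated H1299 the summed level of replication genes was 2741, 4017, 3751 and 3389 CPM from low to high score, and 11 of 50 genes were at least 1.5-fold higher and 4 lower (median 0.18), beside 10.9% and 3.08% of all genes there. The treated low-score set, at 629.6 CPM, lay below every untreated set. All 44 genes compared in both libraries had the larger ratio in treated cells, beside 4678 of all 7084 genes. Some of the 44 passed the count limit in treated cells only through the high-score set, so part of this count may follow from that rule. The larger ratio of high to low score in treated cells applies to these genes as well, and its part was not tested. RRM2 had a difference of 3.44 (3.07 to 3.80), with 58.4 and 148 CPM in untreated low-score and high-score cells. MCM6 had 1.55 in treated and -0.78 in untreated cells, and CDC6 3.34 and -0.70. Histone genes summed to 3981, 7154, 6891 and 5029.6 CPM in untreated cells, so the sum was higher in high-score than in low-score cells although the median ratio of single genes was -0.24, with HIST1H4C at -0.48. In thinned untreated cells the median was 9, 15, 13 and 12 counts of S-phase genes from low to high score.

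Some genes were named for a lower ratio in treated than in untreated cells. Cyclin D1 had -0.78 in treated and 0.02 in untreated cells, PHLDA1 -1.48 and -0.55, and TM4SF1 -0.93 and -0.03. NEAT1 (-1.41) and MYC (-1.43) had similar ratios in untreated cells. CTGF had the lower ratio in untreated cells (-1.75). RNF213 and GSTK1 had -0.75 and -0.91 in treated cells against -0.10 and -0.26, KMT2E and CLEC11A -0.34 and -0.27 against 0.35 and 0.35, and AAK1 0.35 against 1.03.

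HCT116 cells were ranked in the same way in each of their libraries. In treated HCT116, 657 of 4985 genes (13.2%) were at least 1.5-fold higher and 78 (1.56%) lower, and in untreated HCT116 542 (7.02%) and 46 (0.596%) of 7724. The replication list had 34 of 35 genes higher in treated HCT116 (median 1.09) but 1 higher and 13 lower of 51 in untreated HCT116 (median -0.24). Mitotic kinases had medians of 2.64 and 2.05 in these libraries. The treated HCT116 library was shallower, with a median of 8449 counts per cell, so fewer genes could be compared.

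The TE share differed less with the score in the other libraries. It was 0.215%, 0.199%, 0.202% and 0.183% in untreated H1299 (log2 ratio -0.24), 5.78%, 6.01%, 5.70% and 4.79% in treated HCT116 (-0.27), and had a ratio of -0.07 in untreated HCT116. Treated H1299 was lower than these by 0.43 (0.40 to 0.45), 0.39 (0.38 to 0.40) and 0.59 (0.58 to 0.61) on the log2 scale, with counting intervals and no replicates. LTR12 had 0.04 in treated HCT116 and -0.50 in untreated H1299. Alu elements had -0.93 in treated HCT116, a lower ratio than in treated H1299, and THE1 -0.50. Classes of elements listed in the deposited table differ between libraries, so these shares do not cover the same elements.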

How the data were processed

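Whole-number counts of 4 single-cell libraries were deposited by the authors in 2 tables, for genes and for transposable elements (TE), with 1 line for each feature in a cell. Per the labels' protocols, read 1 carries cell barcodes and molecular identifiers. No source used here says whether the counts are of such identifiers. The submitters' processing notes name CASAVA, STAR and the builds GRCh38 and hg38, without versions or roles. Cells were assigned to libraries by the suffix of their names, and all columns belonged to these libraries (0 columns of other samples).

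Features of 1 gene were summed under its name, and 2419 names that join several genes were left out except in an alternative. Numbered features are listed only from 10 counts in a library, and unlisted TE classes are neither 0 nor known to be low. Positions were taken from GENCODE v29 (GRCh38), which matched 7311 of the genes compared.

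Score, sets and gene lists were chosen with earlier results of these data known. Ties in the score were broken by cell name. Counts were summed per set and divided by all gene and TE counts of the set other than those of the 10 markers. Ratios carry exact conditional binomial intervals at 95%, and differences between libraries intervals from the normal approximation to log Poisson counts. A gene at 0 in a set was given 3 counts over the set. Called genes had a ratio of at least 1.5 either way. Genes named in the text were, by rule, those with the highest and lowest ratio in each list (up to 5 each, and any needed to describe a role), the 15 highest and 15 lowest with at least 1000 counts, the 10 highest and 10 lowest differences from untreated H1299, the 6 highest and 6 lowest TE families with at least 1000 counts in the compared sets, all LTR12 families and the 6 most abundant loci. Genes of the comparison with upper-middle cells were named by ratio, with at least 1000 counts, after seeing the data. Doublets were not called, and 1 alternative dropped the deepest 5% of cells. Further alternatives changed the score, the sets, the scaling and the lower limit on counts. Python 3.11.15, numpy 2.4.6 and scipy 1.17.1 were used, and the ratio script was tested on simulated counts.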

Additional observations from a re-analysis of the deposited data

Results flagged for a closer look

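The listed and named genes below passed the 1.5-fold limit in treated H1299 and went the opposite way in untreated H1299, with a 95% counting interval there that left out 0. There is 1 library per treatment, so the difference between them was not tested against replicates. Some of these genes, such as CDC6 and HIST1H1B, passed the count limit in treated cells only through the high-score set. The direction of their treated ratio is largely set by that rule, so their opposite signs alone do not show a difference between treatments. The ratio of high to low score was also larger in treated cells, and its part in these values was not tested. Values are log2 ratios of high-score over low-score cells, treated first.

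Some replication genes were among them, picked here for their opposite signs. Of all 50 replication genes compared in untreated cells, 30 were above 0, 11 passed the limit as higher and 4 as lower, and the median was 0.18. Over all 7924 genes in untreated cells, 5273 were above 0, 10.9% passed the limit as higher and 3.08% as lower, and the median was 0.14. The helicase subunits had 1.36 and -0.32 (MCM2), 1.19 and -0.37 (MCM3), 2.18 and -0.10 (MCM4), 1.56 and -0.42 (MCM5) and 1.55 and -0.78 (MCM6). The factors that load or fire the helicase had 3.34 and -0.70 (CDC6), 3.27 and -0.47 (MCM10) and 2.13 and -0.18 (GINS2). CHAF1B, a histone chaperone at the replication fork, had 1.58 and -0.24. UHRF1, which guides DNMT1 to replicated DNA, had 2.23 and -0.25, and WDR76 had 1.45 and -0.37.

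Some histone genes were picked in the same way. Of 21 compared in untreated cells, 8 were above 0, 3 passed the limit as higher and 6 as lower. Of all 7924 genes there, 5273 were above 0, and 10.9% passed the limit as higher and 3.08% as lower. Of 27 in treated cells, 13 were higher and 3 lower, beside 23% and 4.12% of all genes. HIST1H4C had 2.52 and -0.48, HIST1H1B 3.69 and -1.27, HIST1H1E 1.18 and -0.67, HIST1H2AG 2.30 and -0.39, HIST1H2BJ 2.56 and -0.24, and HIST1H3B 3.16 and -0.54. SLBP, which binds the stem-loop of histone messages, had 0.94 and -0.39.

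The cholesterol synthesis gene IDI1 had 0.65 and -0.15. MIDN and SSFA2 went the other way, with -0.61 and 0.15 for MIDN and -0.70 and 0.14 for SSFA2.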

How the results depend on the processing

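Of 418 values under all settings, 370 stayed near the main value, 47 moved, and 1 value past the 1.5-fold limit changed sign. List medians changed sign 19 times in all, of which 7 were for H1299 markers, 6 for interferon genes and 2 for mitochondrially encoded genes, and 1 each for ribosomal, epithelial and mesenchymal, histone and replication genes. No paired analysis was possible because each line and treatment was 1 library. Leaving out a replicate was likewise not possible. Settings that compare high-score with upper-middle cells, or drop low-score cells without a marker count, were chosen after seeing the data.

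Genes higher numbered 1795, but 709 at a 2-fold limit, 5206 with no limit on counts, 553 with at least 1000 counts and 198 against upper-middle cells. Genes lower numbered 322, but in these settings 67, 5493, 52 and 65. They numbered 125 with the 10% of cells at each end, 131 in cells of middle depth, 511 without mitochondrial and ribosomal protein genes in the denominator, 541 when scaled by the median ratio, 152 without numbered features and 212 without the low-score cells that had no marker count.

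The TE ratio of -0.66 stayed negative. It was -0.81 with the 10% at each end, -0.63 with a thinned score, -0.64 and -0.65 with 5 markers, -0.63 as a mean over cells, -0.65 without the deepest cells, -0.67 without cells of high mitochondrial share and -0.72 in cells of middle depth. It was -0.80 with the other denominator, -0.81 when scaled, -0.38 against upper-middle cells and -0.68 without low-score cells that had no marker count. TE families higher numbered 0, but 2 with the 10% at each end, 1 as a mean over cells and 38 with no limit on counts. Those lower numbered 34, but 55 with the other denominator, 58 when scaled, 10 at a 2-fold limit, 145 with no limit and 18 with at least 1000 counts.

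Against upper-middle cells, list medians were 1.12 for mitotic kinases, 0.44 for kinetochore, 1.09 for spindle, 0.50 for mitotic exit, 0.35 for condensin and cohesin, 0.10 for G2/M regulators and -0.34 for histones. The replication median changed sign there, from 2.21 to -0.0413. With the 10% at each end the medians were 5.76 for mitotic kinases and 2.44 for mitotic exit. Mitotic exit had 1.82 in cells of middle depth, 2.49 without numbered features and 2.02 with at least 1000 counts, where G2/M regulators had 2.81. These settings compare other cells or fewer genes. Beyond that, the cause was not tested. Low-score values of mitotic genes rest on few counts, such as the 7 counts of NEK2 summed over 931 cells.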
